A study of Mus musculus with 17 samples.

Results

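The early response to 75 Gy was read from 6 of the 17 libraries of a mouse lung irradiation series, namely the 3 libraries of 75 Gy-irradiated lungs and the 3 of non-irradiated lungs that were collected after 2 weeks. All mice were male wild-type C57BL/6 animals, 6 weeks old at the start and acclimatised for a week, and the irradiated mice received 75 Gy as a single fraction to the left lung from an image-guided small-animal irradiator. RNA came from collected lung, which in irradiated mice was the lesion at the focal beam. The control libraries are numbered 3126, 3127 and 3128 and the 75 Gy libraries 3132, 3133 and 3134. The labels do not say which animal gave which library, so the p-values measure the spread between samples. In the main fit this spread was estimated within groups over all 17 libraries of the series, and not from these 6 alone. The response was described across all 22052 genes that passed a filter on low counts, out of 45777 listed, with and without library 3134.

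A high focal dose of radiation breaks DNA, and p53, the transcription factor that responds to DNA damage, then switches on genes of cell cycle arrest and cell death. In lung, damage of this kind is followed by an inflammatory stage, radiation pneumonitis, in which monocytes enter the tissue, macrophages take up debris and lipid, and lymphocytes and epithelium release chemokines and interferon-stimulated products. Capillary endothelium, which makes up much of the lung's cell content, is regarded as radiosensitive.

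Between 46764569 and 66797879 reads were counted per library, and a level of 1 CPM, the count scaled to library size, was therefore more than 10 reads in each library. No 2 libraries held identical counts. Across genes, the Pearson r of log2 CPM was 0.972 to 0.982 among the 75 Gy libraries, and r with the controls was 0.951 to 0.954 for library 3134 and 0.964 to 0.974 for libraries 3132 and 3133. Library 3134 therefore stood farther from the controls, and results that rest on it are given without it as well. The lung label matched the marker genes in all 6 libraries: Sftpc, the surfactant protein of alveolar type 2 cells, was at 8368 to 17087 CPM, Scgb1a1 of club cells at 5307 to 16732, Ager of alveolar type 1 cells at 1160 to 1975 and Pecam1 of endothelium at 418 to 828.

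Differentially expressed genes (DEGs) had a log2 fold change (Log2FC) of 1 or more in either direction, with an adjusted p of 0.05 or less in edgeR. At 2 weeks, 75 Gy gave 1707 DEGs, 7.74% of the genes tested, of which 1250 (5.67%) were upregulated and 457 (2.07%) downregulated. The median Log2FC of the upregulated genes was 1.74 and that of the downregulated genes -1.32, against 0.0008 over all genes tested. Large changes were upregulations for the most part, with 325 DEGs at a Log2FC of at least 2 and 33 at 4 or more, against 47 at -2 or less, among the 1097 upregulated and 442 downregulated genes that had more than 3 reads in each group. Over all DEGs, with a group at 0 reads set to a floor of 3 reads, these counts were 475, 75 and 62. Values did not overlap between the groups for 1630 of the 1707 DEGs, and for 6667 of all genes tested (30.2%).

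Library 3134 carried a larger change than the other two irradiated libraries. It was the highest of the 3 in 987 of 1250 upregulated genes and the lowest in 329 of 457 downregulated genes. Over the upregulated genes, the median difference in log2 CPM from the control mean was 1.36 in 3132, 1.45 in 3133 and 2.15 in 3134, and over the downregulated genes it was -1.15, -1.07 and -1.81. Without library 3134 there were 846 upregulated (3.85%) and 251 downregulated genes (1.14%) of 21953 tested, and 1030 of the 1097 were also DEGs in the fit with all libraries. All 1701 DEGs that could be tested in both fits kept their sign. When the model saw only the 6 libraries, it called 834 genes of 19644 (4.25%), and 527 without 3134. Leaving out library 3133 instead raised the downregulated genes from 457 to 697. Of the 133 DEGs picked by the naming rule, 33 were not DEGs with the 6 libraries alone, namely Abhd11os, Acod1, Acta1, Actc1, Cd74, Cfb, Ckm, Cnn1, Cyp4b1, Fabp1, Gpihbp1, H2-K1, H2-M2, Hspa1a, Hspa1b, Ighg1, Ighg2c, LOC105245440, Lrat, Mcidas, Mcpt2, Mt2, Myl2, Nr4a1, Nr4a3, Ramp2, Slamf8, Stra6, Tap1, Tlr8, Tmeff2, Tnc and Wfdc21.

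**Figure D1:**
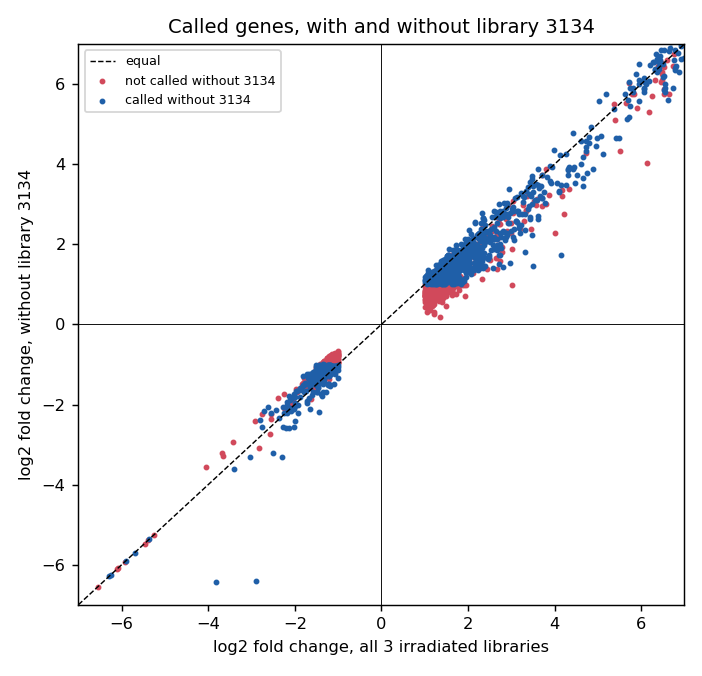
Each point is a DEG of 75 Gy against control at 2 weeks, with its log2 fold change from all 3 irradiated libraries on the x axis and that without library 3134 on the y axis; blue points (1030) were still DEGs without 3134 and red points (671) were not, and the dashed line marks equal values. The points keep their sign and most upregulated ones lie under the line; 38 points lie beyond the axes, which end at 7.

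The DEGs with the largest rises among well-expressed genes were chemokines, an acute-phase protein and macrophage genes. Cxcl9, a chemokine that draws CXCR3-positive T cells and is induced by interferon-gamma, was at 0.609, 0.600 and 0.515 CPM in the controls and at 25.6, 30.6 and 115 CPM in libraries 3132, 3133 and 3134. Its Log2FC was 6.63 ± 0.72 (SE, n = 3 against 3, edgeR adjusted p = 2.92e-05), and 5.61 without 3134. Cxcl9 lies at chr5:92321331-92328079 of GRCm38.p6. The 3 irradiated libraries lay far above the controls, and 3134 was the highest. Saa3, a serum amyloid A protein made locally in inflamed tissue, was at 1.42, 0.236 and 0.725 CPM against 60.7, 31.1 and 131 CPM, a Log2FC of 6.53 ± 0.58. Gpnmb, a glycoprotein of lipid-laden macrophages, was at 20.7, 15.8 and 16.6 CPM against 341, 578 and 877 CPM, and its Log2FC of 5.08 ± 0.31 had a smaller SE than that of Cxcl9 or Saa3. The other large rises were those of Cxcl10 (5.11), the cell adhesion gene Chl1 (4.79), Ccl2 (4.66), the retinol receptor gene Stra6l (4.6), the lipid receptor gene Trem2 (4.30), the elastase gene Mmp12 (4.30), AA467197 (4.27), Ccl7 (4.15) and Acod1 (4.15), all as Log2FC. All 12 genes were DEGs without 3134 too. Acod1, whose enzyme makes itaconate in activated macrophages, depended on it most, since it was at 1.14 to 1.65 CPM in the controls, at 4.20 and 4.73 CPM in 3132 and 3133 and at 63.5 CPM in 3134. Its Log2FC was 1.72 without 3134, and with the 6 libraries alone its adjusted p was 0.0671 in edgeR.

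The largest falls were smaller and joined genes of several kinds. Cyp26b1, which encodes an enzyme that degrades retinoic acid, was at 55.4, 155 and 227 CPM in the controls and 7.98, 21.8 and 4.38 CPM after 75 Gy (Log2FC -3.67 ± 1.08, edgeR adjusted p = 0.0239). The controls of Cyp26b1 varied, and the call was lost without 3128, 3132 or 3134 (edgeR adjusted p = 0.0687, 0.0684 and 0.0901). Fabp1, a fatty acid-binding protein, had a Log2FC of -2.24 and was likewise not a DEG without 3126, 3128, 3133 or 3134. Mmp9 (-2.36), Nlrp12 (-2.18), the lectin gene Clec12b (-2.17), Cxcr2 (-2.12), Gm33122 (-2.11), Hspa1a (-2.08), S100a8 (-2.06), Myh7 (-2.0), Hes2 (-2.0) and Asprv1 (-1.98) made up the rest, and each of these 10 remained a DEG without 3134. Hspa1a was at 106, 152 and 26.1 CPM in the controls and 24.4, 17.9 and 24.8 CPM after 75 Gy, so control 3128 lay close to the irradiated libraries. In the controls of 6 weeks it was at 10.4, 10.6 and 12.4 CPM. Reads of Hspa1a and its near-identical neighbour Hspa1b can be split between them by the counting, so their separate levels are uncertain.

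**Figure D2:**
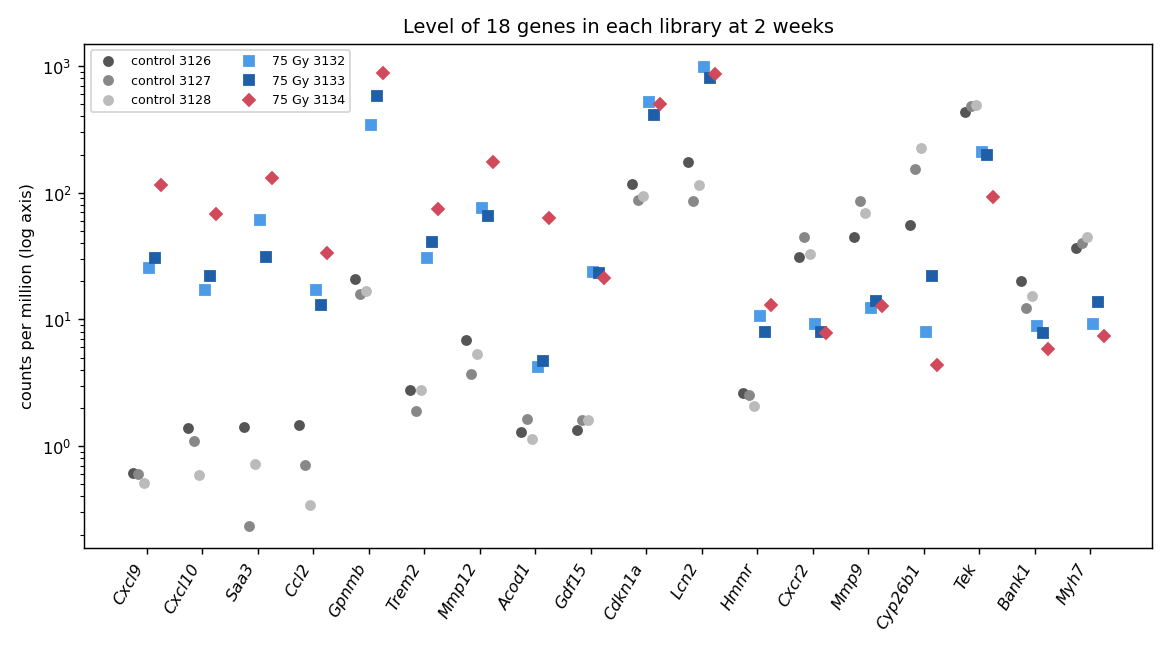
CPM (y axis, log scale) of 18 genes (x axis) in each of the 6 libraries at 2 weeks; grey circles are controls, blue squares 75 Gy libraries 3132 and 3133 and red diamonds 75 Gy library 3134. The irradiated libraries lie above the controls from Cxcl9 to Hmmr and under them from Cxcr2 to Myh7, and 3134 stands apart for Acod1 at 63.5 CPM.

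Genes that p53 activates were among those upregulated. Of 29 tested, 13 were upregulated and 0 downregulated, and 12 were upregulated without 3134. The median Log2FC of the list was 0.84, and its median difference from the control mean was 0.70, 0.82 and 0.84 in 3132, 3133 and 3134. Gdf15, a stress-induced cytokine, was at 1.34, 1.61 and 1.60 CPM in the controls and at 23.5, 23.4 and 21.2 CPM after 75 Gy, a Log2FC of 3.90 ± 0.12 (edgeR adjusted p = 7.65e-11). Cdkn1a, the cell cycle inhibitor p21, was at 118, 88.1 and 94.1 CPM against 519, 412 and 497 CPM (2.25 ± 0.16). Psrc1 (3.83 ± 0.19) and the apoptosis gene Phlda3 (1.90 ± 0.12) were also upregulated. Library 3134 was the highest in 11 of the 29 genes, Psrc1 among them, and not in Gdf15, Cdkn1a and Phlda3. Without it the Log2FC was 3.69 for Psrc1 and 3.95, 2.22 and 1.98 for the other 3.

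Genes of cell division rose together. Of the 58 mitosis and kinetochore genes, 47 were upregulated and 0 downregulated (45 without 3134, 41 with the 6 libraries alone and without 3134), and their median Log2FC was 1.68 (1.49 without 3134). Hmmr, a spindle-associated hyaluronan receptor, was at 2.62, 2.51 and 2.06 CPM in the controls and 10.6, 8.01 and 13 CPM after 75 Gy (Log2FC 2.14 ± 0.25, edgeR adjusted p = 4.93e-05). Cenpf, a kinetochore protein, was at 3.33, 4.73 and 4.84 CPM against 12.4, 14.0 and 21.2 CPM, and Kif20a, a kinesin of cytokinesis, had a Log2FC of 2.15 ± 0.25. All irradiated libraries lay above all controls for these 3 genes. Of 44 DNA replication genes, 19 were upregulated and 0 downregulated (15 without 3134, 9 with the 6 libraries alone and without 3134), with a median Log2FC of 0.93, among them the repair gene Brca1 (1.54 ± 0.16) and the methylation maintenance factor Uhrf1 (1.87 ± 0.22). The proliferation genes and Cdkn1a were thus upregulated in the same libraries. In bulk RNA, a change in the number of cells of a type and a change in the RNA per cell cannot be told apart.

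Interferon-stimulated genes were upregulated, and their extent rested on library 3134. Of 33 type I interferon-stimulated genes, 20 were upregulated (11 without 3134, 13 with the 6 libraries alone), with a median Log2FC of 1.11 (0.69 without 3134), and all 33 had a positive value. Ifit1, which binds viral RNA, was at 29.7, 25.3 and 20.5 CPM in the controls and at 86.1, 57.3 and 98.1 CPM after 75 Gy (1.68 ± 0.18). Isg15, a ubiquitin-like protein (2.02 ± 0.24), and Mx1 (2.28 ± 0.30), which the annotation lists as a transcribed pseudogene, were also DEGs with and without 3134. Oas3, a sensor of double-stranded RNA, showed the other pattern, at 11.1, 12.1 and 6.88 CPM in the controls, 9.98 and 12.9 CPM in 3132 and 3133 and 53.9 CPM in 3134, and its Log2FC was 1.35 with and 0.19 without 3134.

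Of 39 interferon-gamma-inducible genes, 24 were upregulated with all libraries, 8 without 3134, 14 without control 3127 and 4 with the 6 libraries alone, and 38 of the 39 had a positive Log2FC. Library 3134 was the highest of the irradiated libraries in 39 of these 39 genes. The median difference in log2 CPM from the control mean was 0.38 in 3132, 0.67 in 3133 and 2.00 in 3134. Cxcl10, an interferon-induced chemokine, was at 1.40, 1.09 and 0.591 CPM in the controls and 17.1, 21.9 and 67.6 CPM after 75 Gy, and was a DEG in each of these fits. Fcgr1, the high-affinity IgG receptor of monocytes and macrophages, was at 6.56, 3.98 and 4.06 CPM against 17.9, 26.4 and 76.2 CPM (3.04 ± 0.41). Ifng itself was not a DEG, at 0.467, 0.171 and 0.572 CPM in the controls and 0.543, 0.709 and 1.62 CPM after 75 Gy (edgeR adjusted p = 0.0666).

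The calls for MHC class I presentation rested on library 3134, and those for class II did so in part. Of 11 MHC class II presentation genes 7 were upregulated (3 without 3134), and of 19 MHC class I genes 3. In that list 0 were DEGs without 3134, 1 with the 6 libraries alone, 6 without 3132 and 5 without 3133. H2-K1, a classical class I chain, had a Log2FC of 1.02 with 3134 and of 0.63 without it (edgeR adjusted p = 8.81e-04), and it also slipped under the limit without 3126 or 3127. H2-Ab1, a class II chain and a DEG in both fits, was at 245, 240 and 326 CPM in the controls and at 550, 621 and 1326 CPM after 75 Gy. Ctss, the protease that trims the class II invariant chain, was at 270, 147 and 186 CPM against 916, 1317 and 3239 CPM, a Log2FC of 3.18 ± 0.36. Psmb8, an immunoproteasome subunit, and the peptide transporter Tap1 were DEGs with 3134 (1.16 and 1.18) and not without it (0.77 and 0.63). MHC genes have near-identical relatives, so the split of reads among the H2 genes is uncertain.

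The promoters of genes from these groups were searched for short sequences that the interferon regulatory factors and the cell cycle regulators are known to bind. The windows reach from 250 bases before to 50 bases after each RefSeq start site of GRCm38.p6, and 20050 of them, belonging to 15763 of the genes tested, were read on both strands. The core of the interferon-stimulated response element (ISRE), searched as a pair of GAAA with any 2 bases between them, was in 3.23% of all these promoters, in 16 of 27 promoters of the type I interferon-stimulated list (59.3%) and in 11 of 27 of the interferon-gamma-inducible list (40.7%). TTTGAA, the core of the cell cycle homology region, was in 14.0% of all promoters and in 35 of 54 promoters of the mitosis and kinetochore list (64.8%), but in 5 of 42 of the DNA replication list (11.9%). CCAAT was in 36.8% of all, in 40 of 54 of the mitosis list (74.1%) and in 26 of 42 of the replication list (61.9%). Over the DEGs, the ISRE core was in 6.60% of the promoters of upregulated and 1.68% of those of downregulated genes, and TTTGAA in 21.0% and 15.9%. Motifs were counted separately, so they can overlap. A match is a stretch of letters and does not show that a factor was bound.

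Printed here are the promoters of 2 interferon-induced and 2 mitosis genes, from 250 bases before to 25 bases after the start site, 5' to 3' along the gene. Capitals mark the ISRE core or its reverse complement in Cxcl10 and Ifit1, and TTTGAA and CCAAT or their reverse complements in Hmmr and Cenpf. Ifit1 holds 2 matches next to each other, and Hmmr holds 5 of CCAAT and 1 of TTTGAA.
Cxcl10 (chr5:92348865-92349139, minus strand): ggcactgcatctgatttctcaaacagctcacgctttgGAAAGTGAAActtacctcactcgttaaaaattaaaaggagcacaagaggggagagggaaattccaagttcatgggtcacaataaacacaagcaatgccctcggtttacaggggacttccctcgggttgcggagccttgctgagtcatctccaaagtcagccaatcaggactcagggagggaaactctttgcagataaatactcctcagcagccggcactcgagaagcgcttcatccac
Ifit1 (chr19:34640639-34640913, plus strand): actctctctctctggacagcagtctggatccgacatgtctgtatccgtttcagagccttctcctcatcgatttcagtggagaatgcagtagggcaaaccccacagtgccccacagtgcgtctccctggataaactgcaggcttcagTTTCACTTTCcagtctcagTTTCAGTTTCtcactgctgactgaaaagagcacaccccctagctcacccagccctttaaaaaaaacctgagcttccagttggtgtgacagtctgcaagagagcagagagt
Hmmr (chr11:40733413-40733687, minus strand): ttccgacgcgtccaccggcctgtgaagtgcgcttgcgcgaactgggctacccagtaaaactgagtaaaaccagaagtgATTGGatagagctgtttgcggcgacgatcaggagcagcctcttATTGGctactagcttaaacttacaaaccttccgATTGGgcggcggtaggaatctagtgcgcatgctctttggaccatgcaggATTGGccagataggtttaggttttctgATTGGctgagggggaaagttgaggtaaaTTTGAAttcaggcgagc
Cenpf (chr1:189688062-189688336, minus strand): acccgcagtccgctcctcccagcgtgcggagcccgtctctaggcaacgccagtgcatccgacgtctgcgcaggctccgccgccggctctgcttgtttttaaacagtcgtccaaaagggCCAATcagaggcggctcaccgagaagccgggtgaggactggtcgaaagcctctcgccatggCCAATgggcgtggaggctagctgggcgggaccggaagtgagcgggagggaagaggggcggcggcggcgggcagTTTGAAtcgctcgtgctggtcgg

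Chemokines were upregulated in both families. Of 19 CC chemokines 11 were upregulated, with and without 3134, and of 16 CXC and CX3C chemokines 10 (8 without 3134, 6 with the 6 libraries alone), with median Log2FC of 1.97 and 1.42. Ccl2, the main attractant of CCR2-positive monocytes, was at 1.46, 0.707 and 0.343 CPM in the controls and at 17.2, 12.9 and 33.5 CPM after 75 Gy (4.66 ± 0.46, edgeR adjusted p = 1.32e-05). Ccl12 (3.62 ± 0.27) and Ccl8 (3.40 ± 0.33), which attract monocytes as well, and the neutrophil attractant Cxcl5 (3.28 ± 0.45) were also DEGs. Among 23 chemokine receptors 10 were upregulated and 3 downregulated (7 and 2 without 3134). Xcr1 of cross-presenting dendritic cells had a Log2FC of 1.82. Cxcr2, the receptor that draws neutrophils, moved the other way, from 31.2, 44.6 and 32.7 CPM to 9.23, 7.94 and 7.79 CPM (-2.12 ± 0.20, edgeR adjusted p = 9.50e-06). Cxcl5 and Cxcr2, ligand and receptor, thus changed in opposite directions.

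Acute-phase genes and cytokines were upregulated in part of their lists. Of 21 acute-phase genes 10 were upregulated (9 without 3134), with a median Log2FC of 1.32. Lcn2, an iron-sequestering protein, was at 176, 85.3 and 116 CPM in the controls and 983, 805 and 863 CPM after 75 Gy (2.81 ± 0.20). Orm2, an acid glycoprotein, had no read in any control and 42, 64 and 61 reads after 75 Gy, which made it at least 45.4-fold higher when 3 reads over the control group are taken as the floor. Of 28 proinflammatory cytokines and receptors 8 were upregulated (8 without 3134, with 1 downregulated, and 4 with the 6 libraries alone and without 3134). Tnf, a central inflammatory cytokine, was at 1.10, 1.03 and 1.20 CPM against 3.38, 3.34 and 6.35 CPM (1.97 ± 0.24), and Il12b (2.24 ± 0.30) and Lif (2.35 ± 0.33) rose as well. Il6 was at 1.36, 0.278 and 0.381 CPM against 6.60, 3.59 and 4.71 CPM (2.88 ± 0.56). In the complement list 9 of 25 genes were upregulated and 1 downregulated, led by the subunits C1qb (3.42 ± 0.26) and C1qc (3.12 ± 0.29) of the initiating C1q complex and the receptor gene C3ar1 (4.11 ± 0.38). Inflammasome and Toll-like receptor genes gave 8 of 20, but 2 of 20 without 3134, 2 of 20 with the 6 libraries alone and 13 of 20 without 3132 or 3133. The adaptor Pycard (1.67, and 1.34 without 3134) was a DEG without 3134, and the receptors Cd14 and Tlr8 passed the fold limit only with 3134 (1.20 and 1.65, against 0.98 each).

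Macrophage genes were among those upregulated. Of 31 genes of lipid-laden macrophages and lysosomes, 19 were upregulated and 0 downregulated, with and without 3134, at a median Log2FC of 1.48. Trem2, a lipid receptor of macrophages, was at 2.76, 1.88 and 2.78 CPM in the controls and 30.5, 40.9 and 75.0 CPM after 75 Gy. The lysosomal proteases Ctsd and Ctsk followed, Ctsd at 723, 571 and 594 CPM against 2631, 3064 and 3740 CPM (2.32 ± 0.13) and Ctsk with a Log2FC of 2.66 ± 0.16. Monocyte and inflammatory macrophage genes were upregulated in 15 of 22 (12 without 3134), among them Ms4a7 (3.49 ± 0.27), the lysosomal protein gene Cd68 (2.48 ± 0.22) and C1qa (3.11 ± 0.29). Genes of alternatively activated macrophages gave 6 of 17, with Arg1, the arginine-degrading enzyme, at 3.78, 1.69 and 2.17 CPM against 9.14, 16.8 and 49.7 CPM and Clec10a, a lectin, at 1.71 on the Log2FC scale.

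The list of resident alveolar macrophages split. Of 19 genes tested, 6 were upregulated and 4 downregulated (5 and 3 without 3134), and the median Log2FC was 0.09. Ctsk, the proton pump subunit gene Atp6v0d2 (1.76 ± 0.13) and Cd200r1 (2.40 ± 0.22) were upregulated. Marco, a scavenger receptor, was at 22.9, 9.89 and 20.3 CPM in the controls and 131, 97.1 and 98.0 CPM after 75 Gy (2.62 ± 0.29). In contrast, Krt79 was at 20.8, 17.2 and 18.9 CPM against 9.44, 6.12 and 5.50 CPM (-1.43 ± 0.29), and the ribonuclease Ear1 fell too (-1.60 ± 0.39). Of 19 dendritic cell genes 10 were upregulated and 1 downregulated (7 and 1 without 3134), among them the uptake receptor Ly75 (1.11 ± 0.15) and Ccl17 (2.34 ± 0.35).

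More neutrophil genes fell than rose. Of 24 tested, 10 were downregulated and 3 upregulated (9 and 2 without 3134, 5 and 2 with the 6 libraries alone and without 3134), and the median Log2FC was -1.43. S100a8, a calcium-binding protein abundant in neutrophils, was at 142, 111 and 67.9 CPM in the controls and 42.2, 17.8 and 16.8 CPM after 75 Gy (-2.06 ± 0.47). Mmp9, a gelatinase of their granules, was at 44.6, 85.8 and 69.3 CPM against 12.2, 14.0 and 12.7 CPM (-2.36 ± 0.31). The 3 that rose were Lcn2, Chil1 and Cd177, of which Lcn2 and Chil1 are also made by epithelium. Cd177 was not a DEG without 3134, and Chil1 was not without 3127. The summed level of the list was higher after 75 Gy, at 3300, 2952 and 2770 CPM against 1966, 1555 and 1552 CPM, and Chil1 alone was at 689 to 1019 CPM in the controls and 1625 to 2133 CPM after 75 Gy. Mast cell genes gave 3 downregulated and 1 upregulated of 13, though 9 had a positive value (median 0.11), with Kit, the stem cell factor receptor, from 181, 251 and 294 CPM to 93.8, 123 and 63.0 CPM and Gata2 with the same Log2FC of -1.37. Which cells the reads of Kit and Gata2 came from was not tested. Mcpt2, a mast cell protease, had no read in the controls and 18, 20 and 199 reads after 75 Gy, at least 67.8-fold higher, and was not a DEG with the 6 libraries alone (edgeR adjusted p = 0.0738). Of 7 eosinophil genes Ear6 alone was a DEG (3.50 ± 0.64), and 2 were when 3126, 3127 or 3133 was left out. The eosinophil list as a whole did not rise, with a median Log2FC of -0.31 and 3 positive and 4 negative values.

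Among lymphocyte genes, most regulatory T cell and checkpoint genes rose and some B cell genes fell. Of 16 regulatory and checkpoint genes, 13 were upregulated (12 without 3134, 7 with the 6 libraries alone), at a median Log2FC of 1.92 (1.25 without 3134). Foxp3, which defines regulatory T cells, was at 0.852, 1.5 and 1.79 CPM in the controls and 4.36, 8.48 and 18 CPM after 75 Gy (2.89 ± 0.44). The costimulatory receptor gene Tnfrsf9 (2.95 ± 0.29) and Havcr2 (1.60 ± 0.21) were upregulated. By contrast, of 26 cytotoxic T and NK cell genes 0 were DEGs in edgeR's quasi-likelihood test, with 10 at an unadjusted p under 0.05, and 1 was a DEG each with DESeq2, with edgeR's exact test and without 3126, 3132 or 3133. Of these 26 genes, 21 had a positive Log2FC, with a median of 0.31 over the list. Gzmc, a granzyme gene outside this list, was a DEG and is given below. Cd3g, a T cell receptor subunit, was at 11.1, 8.35 and 8.24 CPM against 15, 13.3 and 22.4 CPM, and Zap70, its kinase, had a Log2FC of 0.79. Of 18 B cell genes 6 were downregulated (3 without 3134, 1 without control 3126, and 5 or 1 with the 6 libraries alone, with or without 3134), and 17 had a negative value. Bank1, a B cell scaffold protein, was at 20.1, 12.4 and 15.2 CPM against 8.79, 7.80 and 5.84 CPM (-1.09 ± 0.21), and Ighd, the IgD constant region, had a Log2FC of -1.28. Ighd was a DEG without 3134 too, and Bank1 was not without 3126 or 3134. Plasma cell genes gave 4 of 17 upregulated (2 without 3133 or 3134, 1 without 3127 or with the 6 libraries alone), and Ighg2b was uneven, at 2.03, 1.18 and 1.70 CPM in the controls and 3.31, 20.0 and 26.7 CPM after 75 Gy. Ighg1 (2.60) and Ighg2c (3.81) rose too, but the call of Ighg2b was lost without 3127 or 3134 and that of Ighg2c without 3127, 3128, 3133 or 3134. Constant-region genes are similar in sequence, so the split among the Ighg genes is uncertain.

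Among capillary endothelial genes more fell than rose. All 23 general capillary and pan-endothelial genes had a negative Log2FC, with a median of -0.96 (-0.69 without 3134), under each scaling of the libraries that was tried. Of the 23, 10 were downregulated with all libraries, 2 without 3134 and 1 with the 6 libraries alone, 3134 included. Tek, the angiopoietin receptor, was at 430, 483 and 494 CPM in the controls and 211, 197 and 92.9 CPM after 75 Gy (-1.49 ± 0.21, edgeR adjusted p = 2.26e-04), and was a DEG without 3134 as well (-1.20). Ramp2, which is needed for adrenomedullin signals, was at 185, 225 and 208 CPM against 129, 106 and 51.5 CPM (-1.11 ± 0.22), and Gpihbp1, which anchors lipoprotein lipase to capillaries, had a Log2FC of -1.06. Both lost the call without 3134 (-0.81 and -0.82), and Gpihbp1 also without 3126. Among 16 aerocyte genes, those of the large gas-exchange capillary cells, 5 were downregulated and 1 upregulated (1 and 0 without 3134, 0 and 1 with the 6 libraries alone). Cyp4b1 was at 612, 572 and 484 CPM against 316, 251 and 130 CPM, Tmeff2 had a Log2FC of -1.12 and Sirpa, which macrophages also express, one of 1.21, and these 3 lost the call without 3134. In the list of endothelial activation, Plau (2.18 ± 0.19), Procr (2.04 ± 0.19) and Lrg1 (1.85 ± 0.22) rose with and without 3134, among 4 upregulated and 1 downregulated of 22. Pericyte and smooth muscle genes gave 0 DEGs of 13 in edgeR's quasi-likelihood and exact tests and in DESeq2, though all 13 had negative values under each scaling and 8 had an unadjusted p under 0.05. The matrix gene Lamc3 (-0.91) and Myh11 (-0.90), the smooth muscle myosin, were the nearest. Leaving out 3133 brought the DEGs of this list to 2.

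Among epithelial genes, the lists of the alveolar types, club cells and cilia held 0 to 2 DEGs each, against 7.74% of all genes tested. Of 23 alveolar type 2 genes 2 were upregulated, Chil1 (1.11 ± 0.15) and the invariant chain gene Cd74 (1.25 ± 0.26), which antigen-presenting cells also express, and Sftpc had a Log2FC of -0.11 ± 0.23 with overlapping groups. Cd74 lost the call without 3134 and Chil1 without 3127, and the list had 4 DEGs without 3126 and 1 without 3127. Of 19 alveolar type 1 genes 0 were DEGs by edgeR's quasi-likelihood and exact tests or DESeq2, 14 had an unadjusted and 13 an adjusted p of at most 0.05 under the fold limit, and 16 had a negative value. Vegfa, an endothelial growth factor, was at 1089, 1284 and 1306 CPM against 800, 830 and 484 CPM (-0.80), whereas Pdpn, a surface glycoprotein, had a Log2FC of 0.56. Of 19 club cell and 22 motile cilia genes, 0 were DEGs by any of these tests, with 4 and 1 at an unadjusted p under 0.05. Scgb1a1 was at 16732, 15803 and 13397 CPM in the controls and 10615, 9745 and 5307 CPM after 75 Gy (-0.84 ± 0.21), and Cbr2 had a Log2FC of -0.90, while for cilia the values of Tppp3 and Ccdc39 were -0.76 and -0.29. Leaving out 3132 brought the club cell DEGs to 4 and those of alveolar type 1 and of cilia to 1 each, and the club cell DEGs were 2 without 3133 and 1 without 3127. Of 19 genes of the Krt8-positive transitional state, an intermediate between the alveolar types, 7 were upregulated (5 without 3134), with Gdf15, Cdkn1a and the lectin gene Lgals3 (1.63 ± 0.27) the strongest by p, but Krt8 itself was at 220, 169 and 162 CPM against 204, 165 and 259 CPM.

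**Figure D3:**
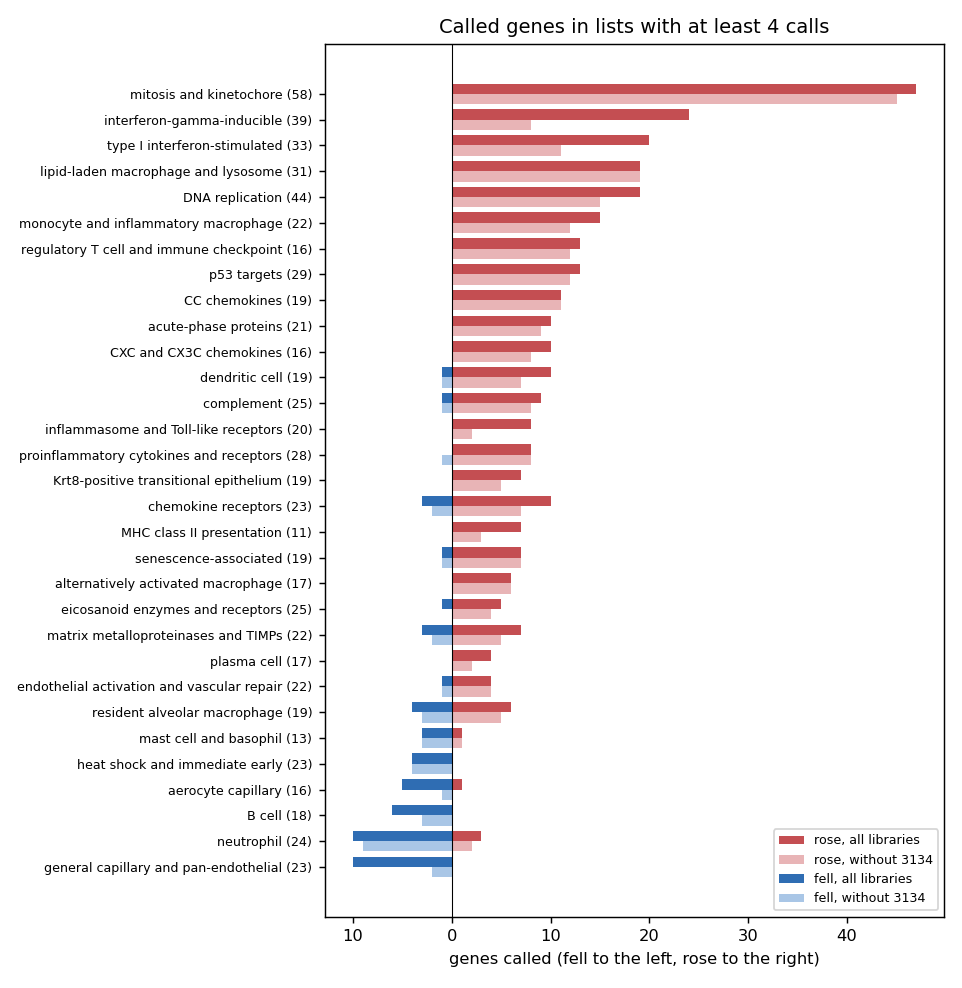
Bars give the number of genes upregulated (red, to the right) and downregulated (blue, to the left) in each of the 31 gene lists with at least 4 DEGs, dark with all libraries and pale without 3134, with the number of genes tested in parentheses. The interferon-gamma list falls from 24 to 8 and the general capillary list from 10 to 2, while the lipid-laden macrophage list stays at 19.

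Lists of matrix genes differed in how many of their members were DEGs, against 7.74% of all genes tested. Of 37 collagen and fibrillar matrix genes 2 were upregulated, with and without 3134, fibronectin (Fn1) and tenascin C (Tnc), and the median Log2FC was 0.26. With no fold limit, 12 of the 37 had an adjusted p of at most 0.05 and 20 an unadjusted p under 0.05 in edgeR. Fn1 was at 574, 603 and 682 CPM in the controls and 1464, 1542 and 2158 CPM after 75 Gy (1.47 ± 0.14), and Tnc at 58.2, 27.9 and 39.2 CPM against 91.4, 83.1 and 187 CPM. Col1a1, the main fibrillar collagen chain, was at 266, 303 and 424 CPM against 328, 551 and 489 CPM (0.46 ± 0.21, edgeR adjusted p = 0.138). In the list of myofibroblasts and profibrotic signals, the activin subunit Inhba (3.23 ± 0.45) and the protease inhibitor Timp1 (2.58 ± 0.43) were upregulated and the contractile Cnn1 (-1.13 ± 0.33) downregulated, of 24 tested. Cnn1 was a DEG neither without 3126, 3127, 3132 nor without 3134, and the list had 6 DEGs without 3133. Acta2, the myofibroblast actin, was at 213, 167 and 138 CPM against 122, 129 and 105 CPM and was not a DEG. Metalloproteinases and their inhibitors gave 7 upregulated and 3 downregulated of 22 (5 and 2 without 3134), with Mmp12 from 6.92, 3.70 and 5.36 CPM to 75.2, 65.5 and 174 CPM and the collagenase Mmp13 at a Log2FC of 2.20 ± 0.29. Of 19 senescence-associated genes 7 were upregulated and 1 downregulated, led by Gdf15, Cdkn1a and Mmp12.

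Every list of stress, metabolic and clock genes except that of cholesterol and fatty acid synthesis held DEGs. Over all genes tested the share of DEGs was 7.74%. Among 23 NRF2 antioxidant genes 3 were upregulated, the cystine transporter Slc7a11 (3.17 ± 0.31), haem oxygenase Hmox1 (2.16 ± 0.24) and the metallothionein Mt2 (1.28 ± 0.33, not a DEG without 3127 or 3128), and 5 were DEGs without 3126 or 3132. Slc7a11 was at 2.17, 2.72 and 4.81 CPM in the controls and 19.8, 24.2 and 43.4 CPM after 75 Gy. Eicosanoid genes gave 5 upregulated and 1 downregulated of 25, with the prostaglandin D synthase Hpgds (2.11 ± 0.21), the prostaglandin receptor Ptger4 (1.74 ± 0.19) and the leukotriene synthase Ltc4s (1.15 ± 0.14). Of 17 aryl hydrocarbon and retinoid genes, Cyp26b1 and Lrat (-1.79 ± 0.55), which esterifies retinol, fell and Stra6 (1.91 ± 0.64), at 0 to 0.440 CPM, rose. None of the 3 was a DEG without 3128, 3132 or 3134, nor was Lrat without 3127 or Stra6 without 3126 or 3133. Cholesterol and fatty acid synthesis gave 0 DEGs of 23 in edgeR's tests and DESeq2, with 6 at an unadjusted p under 0.05, the desaturase Scd1 (0.91) and Dhcr7 (0.44) the first by p. Without 3134 or 3126, Scd1 passed the limit at 1.09 or 1.02. In the clock list Bhlhe41 (2.33 ± 0.17) and Bhlhe40 (1.14 ± 0.17), transcriptional repressors, rose and Per1 (-1.40 ± 0.35) fell, of 18. Bhlhe40 was under the fold limit without 3126 or 3134, and the list had 5 DEGs without 3133. Heat shock and immediate early genes gave 4 downregulated of 23, including Hspa1b (-2.02) and Nr4a1 (-1.54 ± 0.39). Nr4a1 was at 293, 113 and 138 CPM against 50.6, 80.4 and 56.2 CPM, and was not a DEG without 3126. With the 6 libraries alone 1 gene of the list was a DEG, and Hspa1a, Hspa1b and Nr4a1 were not (edgeR adjusted p = 0.0669, 0.0732 and 0.0539).

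The lists of cardiac muscle, fat and mesothelium had mostly negative values after 75 Gy. The 14 cardiac muscle genes had summed levels of 400, 499 and 393 CPM in the controls and 128, 321 and 92.4 CPM after 75 Gy, and 3 were downregulated (1 without 3134 or with the 6 libraries alone, 10 without 3133). DESeq2 called 6 genes of this list and edgeR's exact test 7. Myh7, a slow myosin of heart, was at 36.8, 40.4 and 44.3 CPM against 9.12, 13.8 and 7.35 CPM (-2.0 ± 0.22), Actc1 had a Log2FC of -1.49, and Myl2, at 12, 0 and 10 reads against 0, was at least 8.76-fold lower. Actc1 lost the call without 3134, and Myl2 when any library but 3127 was left out. The defining marker Myh6 was at 141, 200 and 154 CPM against 38.2, 133 and 31.0 CPM. Of 18 adipocyte genes 17 had negative values and 3 were downregulated, Cidec (-1.69), Plin4 (-1.77) and Acvr1c (-2.11), of which Cidec was a DEG without 3134. The list had 7 DEGs with the 6 libraries alone, 6 without 3133 and with DESeq2 and 10 with edgeR's exact test. Plin4 and Acvr1c lost the call without 3127, 3128 or 3134, Plin4 also without 3132 and Acvr1c without 3133. The defining markers Adipoq and Plin1 were at 4.52 to 6.21 and 2.15 to 3.26 CPM in the controls and 0.333 to 1.48 and 0.385 to 0.510 CPM after 75 Gy. Of 11 skeletal muscle genes Ckm fell (-1.83) and Acta1 rose, from 0 to 0.0763 CPM to 0.281 to 1.16 CPM, neither being a DEG without 3126, 3127 or 3134, nor Ckm without 3132. Of 12 mesothelial genes 11 had a negative value, with a median Log2FC of -0.68. The DEG of the list was Calb2, with no read in a control and 20, 13 and 23 reads after 75 Gy (at least 15.6-fold higher). There were 2 DEGs without 3126 or with the other tests and 3 without 3132. With the 6 libraries alone and without 3134 there were 0. Thymocyte (10 tested) and erythroid genes (12 tested) gave 0 DEGs each in edgeR's quasi-likelihood and exact tests and in DESeq2, with 2 and 0 genes at an unadjusted p under 0.05 and 1 thymocyte DEG without 3132. Cd4, Ccr9, Epb42 and Hba-a1 had Log2FC of 0.88, 0.60, 0.66 and -0.25. The erythroid genes summed to 6683, 3102 and 1612 CPM in 3132, 3133 and 3134 against 3921 to 3967 CPM in the controls. The origin of these reads and the part of these tissues in the other changes were not tested.

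**Figure D4:**
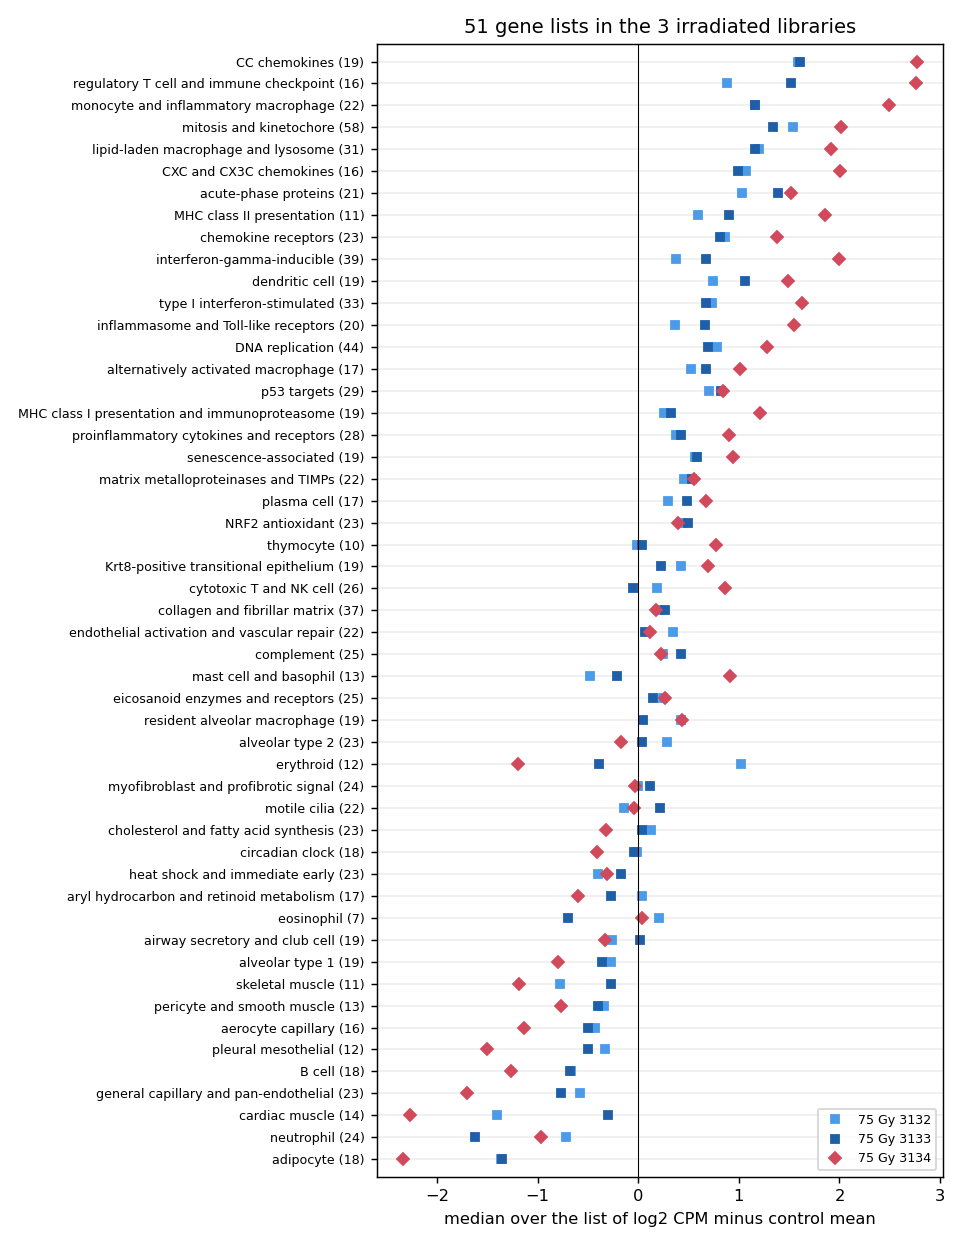
For each of the 51 gene lists (y axis, number of genes tested in parentheses), points give the median over its genes of log2 CPM minus the control mean (x axis) in the 3 irradiated libraries, blue squares for 3132 and 3133 and red diamonds for 3134. Library 3134 is the farthest from 0 in most lists with a shift, whereas the p53 targets lie close together at 0.70 to 0.84.

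Library 3134 can be set apart by genes as well as by lists. The 5 well-expressed DEGs whose Log2FC moved most toward 0 without it were Acod1, the class I-like gene H2-M2 (3.50 to 1.45), Slamf8 (3.32 to 1.81), the complement factor gene Cfb (2.80 to 1.43) and Gm39701 (3.48 to 2.22), and each of them was still a DEG. With the 6 libraries alone Acod1, H2-M2, Slamf8 and Cfb were not DEGs (edgeR adjusted p = 0.0671, 0.0812, 0.0518 and 0.0548), nor was H2-M2 in that fit without 3134 (0.103). Cfb was at 32.3, 33.6 and 39.7 CPM in the controls, 94.2 and 95.1 CPM in 3132 and 3133 and 548 CPM in 3134. A further 5 moved away from 0, namely Csf3r (-1.38 to -1.79), LOC105245440 (-1.29 to -1.69), Nr4a3 (-1.10 to -1.48), Abhd11os (1.55 to 1.89) and Wfdc21 (2.02 to 2.35). Nr4a3 was not a DEG without 3126, 3132 or 3133, nor Abhd11os without 3127 or 3132. Csf3r, the receptor for the neutrophil growth factor G-CSF, was at 117, 168 and 148 CPM against 35.7, 47.6 and 83.0 CPM. While 3134 was the highest of the irradiated libraries in the interferon-gamma-inducible genes, it was the lowest in 23 of 23 general capillary, 18 of 19 alveolar type 1 and 18 of 23 alveolar type 2 genes. Club cell genes summed to 8613 CPM in 3134 against 17331 and 16236 CPM in the other two. The part of a different cell content of this sample in its values was not tested.

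More genes were detected after 75 Gy. At the depth of the shallowest library, 46764569 reads, the expected number of genes with a read was computed for each library, and it was 23924, 23805 and 23940 in the controls and 24857, 26173 and 25860 after 75 Gy, a mean difference of 1740 (exact permutation test, 2-sided, p = 0.100, and 3 against 3 allows none smaller). Of the genes tested, 282 had no read in any control, and 123 of these were DEGs, 100 of them protein-coding and 23 lncRNA. Most were low, with a median of 10, 12 and 13 reads in 3132, 3133 and 3134. In the other groups, which also took part in the filter and the fit, 106 of the 123 had a read in every 75 Gy library of 6 weeks and 96 in every 65 Gy library of 2 weeks, while 15 had a read in every control of 6 weeks and 49 in none. Gzmc, a granzyme of cytotoxic lymphocytes, had 30, 89 and 945 reads (at least 304-fold higher) and the chemokine gene Ccl1 30, 57 and 288 (at least 106-fold higher). Gm7030 had 149, 152 and 291 reads (at least 164-fold higher). All of these were highest in 3134. In the other direction, 57 genes tested had no read after 75 Gy and 12 were DEGs.

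The 75 Gy libraries were compared with the 3 libraries of lungs that received 65 Gy and were collected at the same time. No gene was a DEG between the doses in edgeR's quasi-likelihood test (0%), with a smallest adjusted p of 0.0574 and 1570 genes at an unadjusted p under 0.05. DESeq2 called 7 genes and edgeR's exact test 6, and both called Ccl12, at 0.771, 0.492 and 0.648 CPM in the controls, 6.74, 7.63 and 9.27 CPM after 75 Gy and a Log2FC of 1.52 over 65 Gy. The median Log2FC of 75 Gy over 65 Gy was -0.01 for p53 targets and 0.06 for mitosis. For the interferon-gamma-inducible list it was 0.60 with and -0.01 without 3134. Adipocyte genes had a median of -1.97, and 13 of the 18 had an unadjusted p under 0.05, but none passed the adjustment. The 65 Gy libraries were uneven here, with a list median in log2 CPM over the control mean of 0.99 in 3129 but -1.33 and -1.22 in 3130 and 3131, against -1.36, -1.35 and -2.34 in the 75 Gy libraries. In Cxcl9 the 65 Gy libraries, at 50.0, 15.5 and 17.2 CPM, overlapped those of 75 Gy.

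The effect of 75 Gy at 2 weeks was also tested against its effect at 6 weeks, where 3 irradiated and 3 control libraries had been collected. The difference was past both limits for 56 genes (0.254%), 9 with a higher and 47 with a lower Log2FC at 2 weeks. The number was 31 without control 3126 and 104 without 3132. Among the 47 lower ones, the median Log2FC was -0.52 at 2 weeks and 2.36 at 6 weeks, values that the difference itself had chosen, and 11 were immunoglobulin genes, of which 211 were among the 22052 tested, for instance Iglv1, at 5.95, 3.38 and 3.91 CPM in the controls and 5.27, 7.29 and 3.27 CPM after 75 Gy at 2 weeks, but 76.3, 58.6 and 87.1 CPM after 75 Gy at 6 weeks. Apod, a lipid-carrier protein, was at 10.7, 13.6 and 15.1 CPM at 2 weeks and 45.4, 49.8 and 62.0 CPM at 6 weeks after 75 Gy. Mcidas, a regulator of multiciliated cell fate, moved the other way, at 1.79, 1.55 and 3.73 CPM after 75 Gy at 2 weeks and 0.0656, 0.177 and 0.128 CPM at 6 weeks, with 0.528 to 0.934 CPM in all controls.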

How the data were processed

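RNA was sequenced from lungs of mice at 2 and 6 weeks after 0, 65 or 75 Gy. The authors built stranded mRNA libraries, sequenced paired ends, used Trimmomatic for trimming, HISAT2 for alignment (GRCm38.p6) and StringTie for expression. They deposited read counts per gene as whole numbers, without normalization. The step from StringTie to counts is not given in the sources used here, and fold changes the authors made were not used.

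The 17 libraries in 6 groups were fitted together with edgeR 4.0.16 in R 4.3.3, as a quasi-likelihood model with TMM factors and Benjamini-Hochberg adjustment over 22052 genes kept by filterByExpr (minimum count 10, minimum total 15). SE is the fitted Log2FC divided by the square root of F. CPM use the TMM factors, and log2 CPM a prior count of 2. Methods were tested on simulated data. Gene detection used an exact permutation test in scipy 1.17.1. Between 46764569 and 66797879 counts per library give the depth. Error over libraries limits precision, and counting error adds to it for genes with few reads. Promoters came from RefSeq.

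Members, lists and tests were chosen with earlier results of these data known. Genes are named when they are among the 12 largest rises or falls (DEGs, no overlap, mean of at least 1 log2 CPM), the 3 DEGs with the smallest p of a list, or the 2 with the smallest p where a list had none, the 5 DEGs moving most toward and the 5 moving most away from 0 without 3134, or the 5 with the smallest p against 6 weeks. Sftpc, Ager, Pecam1, Krt8, Acta2, Col1a1, Myh6, Adipoq, Plin1, Ifng, Oas3, Il6, Marco, Krt79, Ear1, Cd177, Gzmc, Ccl1 and Gm7030 were chosen after their values were seen or as defining markers. A few genes that the rule names are not reported here. Lists share members, as do comparisons their control libraries. Alternatives were other filters, scalings and tools, the compared libraries alone, and leaving out each library.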

Additional observations from a re-analysis of the deposited data

Results flagged for a closer look

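The effect of 75 Gy differed between 2 and 6 weeks for 56 genes in edgeR's test of the difference itself. The 5 with the smallest p are given as the Log2FC at 2 weeks minus that at 6 weeks. The difference was 2.05 ± 0.23 (SE) for Bhlhe41, a transcriptional repressor of the clock, 4.29 ± 0.53 for Mcidas, -2.13 ± 0.26 for Apod, -3.32 ± 0.44 for the immunoglobulin gene Iglv1 and -3.07 ± 0.41 for the carboxypeptidase-like gene Cpxm2. Bhlhe41 had a Log2FC of 2.33 at 2 weeks and 0.28 at 6 weeks, and its controls also differed, at 6.31 to 9.15 CPM at 2 weeks and 28.2 to 33.3 CPM at 6 weeks. Both effects use their own controls, so each difference rests on 4 groups of 3 libraries.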

How the results depend on the processing

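No paired analysis was possible because every library carries a number of its own, which no other group repeats. The 1707 DEGs (1250 up, 457 down) were 1604 to 1930 under other filters, scalings and tools. With the compared libraries alone they were 834 (654 and 180), and 527 (436 and 91) without 3134 as well, while no fold limit gave 4922 (2607 and 2315). Leaving out 1 library gave 1097 to 2053 DEGs, 846 to 1445 upregulated and 251 to 697 downregulated. Between doses, the count of 0 became 7 with DESeq2 (Ccl12, Ear2, Gm41738, Arhgap36, AW549542, Gm6522 and LOC106557447) and 6 with the exact test, 4 with the compared libraries alone without 3134 (Cyp1a1, Nqo1, Ces1f and Ces1g), and 0 to 1 when 1 library was left out (Apoe, without 3132). With the compared libraries alone the DEGs also became 1 of the 37 matrix, 23 alveolar type 2, 26 cytotoxic T and NK cell and 17 retinoid genes, 2 of the 13 mast cell and 12 mesothelial genes, and 0 of the 11 skeletal muscle genes. An unadjusted p gave 287 between doses and 978 between times. The 56 genes between times were 299 with DESeq2 and 31 to 104 without 1 library. The cause of these shifts was not tested, though fewer libraries also leave fewer degrees of freedom. Of the 152 named genes, 0 that were DEGs changed sign in a fit. The bulk profile of 3 libraries a group, of which 3134 shifts many lists, limits the separation of cell content from expression.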
